A study of Mus musculus with 11 samples.

Results

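The 9 genes described here encode transporters that carry amino acids across the plasma membrane of T cells: Slc7a5, Slc3a2, Slc7a6, Slc16a10, Slc1a5, Slc1a4, Slc38a1, Slc38a2 and Slc7a1. They were taken by name from the 25562 genes of an RNA-seq table, all 9 were in it, and all 9 passed the filter on low values. RNA was measured in activated CD8+ T cells, the cytotoxic lymphocytes, in 4 AOAH libraries, 3 PC libraries and 4 vehicle libraries. All cells were isolated by kit from spleens of mice of the inbred strain C57BL/6. They were held in a pretreatment for 22 h, and anti-CD3 (1 µg/mL) plus anti-CD28 (0.5 µg/mL) then activated them over 24 h. The AOAH group received 10 µg/mL of recombinant human acyloxyacyl hydrolase, a lipase that removes fatty acyl chains from lipopolysaccharide and phospholipids, together with ethanol. The PC group received 60 µM of the phosphatidylcholine PC16:0-20:4 and a protein buffer control with 10% glycerol in PBS. The vehicle group had ethanol and that 10% glycerol buffer. No glycerol share is given for the AOAH group, so an effect of the buffer and one of AOAH cannot be told apart.

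A resting T cell takes up little amino acid, and activation through the T cell receptor and CD28 raises the transporters as the cell grows. Leucine and glutamine that enter this way feed protein synthesis and the kinase complex mTORC1, which senses them at the lysosome. Slc7a5 (LAT1) imports leucine and other large neutral amino acids in exchange for glutamine, and it works only as a dimer with the heavy chain Slc3a2 (CD98). Slc1a5 (ASCT2) exchanges glutamine and other neutral amino acids, and Slc38a1 and Slc38a2 bring in glutamine and small neutral amino acids with sodium. When amino acids run short, the kinase GCN2 and the transcription factor ATF4 raise many transporter, synthetase and amino acid synthesis genes.

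AOAH and PC each went with higher RNA of some of these transporters, and none of the 9 was lower in either group than in vehicle beyond the test. In AOAH cells Slc16a10, Slc1a5, Slc7a5 and Slc7a6 rose, 4 of 9 genes or 44.4%, against 25.2% of all 11561 genes tested in either direction and 13.1% called higher. In PC cells Slc3a2 and Slc1a5 rose, 2 of 9 genes or 22.2%, against 19.5% of 11628 genes in either direction and 8.27% called higher. Between AOAH and PC, 3 genes were higher in AOAH (Slc16a10, Slc7a1 and Slc7a6) and 2 were lower (Slc3a2 and Slc1a5), 55.6% of 9, against 45.8% of 11596 genes. The median log2 change over the 9 genes was 0.13 for AOAH against vehicle, 0.07 for PC against vehicle and -0.01 for AOAH against PC, where the median over all genes was 0.01, -0.01 and 0.00. Calls were made with limma on log2(TPM + 1) at a Benjamini-Hochberg adjusted p under 0.05 over all genes tested, where TPM is a gene's length-corrected share of a library's transcripts. Groups that did not overlap were counted as well, for 4 of 9 genes in AOAH against vehicle (28.8% of all genes), 4 of 9 in PC against vehicle (39.2%) and 4 of 9 in AOAH against PC (50.7%). The AOAH and PC comparisons share vehicle libraries, so their values are set side by side and are not independent.

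Library numbers are batch numbers in the labels, 1 to 4 for AOAH and vehicle and 1 to 3 for PC, and PC was compared with vehicle 1 to 3. Nothing in the labels says that the libraries came from separate animals or cultures, and the p-values measure only a spread between libraries that may be technical. The labels disagree on when AOAH was added (before or during activation), on whether the antibodies were plate-bound or on beads, and on whether the medium held interleukin-2. The libraries held between 11423 and 11739 genes at 1 TPM or more, and their depth is unknown, since TPM keeps none. The 6 CD8 T cell markers (Cd3d, Cd3e, Cd3g, Cd8a, Cd8b1 and Trac) summed to 1446 to 1475 TPM in AOAH, 1869 to 1925 TPM in PC and 1610 to 1658 TPM in vehicle libraries. Of the 6 markers 4 were called lower in AOAH than in vehicle, against 12.1% of all genes tested. All 6 were called higher in PC than in vehicle, against 8.27%, and all 6 lower in AOAH than in PC, against 21.5%. The 12 markers of other blood cells summed to 1.59 to 3.42 TPM in AOAH, 3.44 to 5.33 TPM in PC and 3.07 to 4.61 TPM in vehicle libraries, and 10 of the 12 were below 1 TPM in every library. None of the 12 was at 0 in every library. The macrophage gene Lyz2 had means of 0.400 TPM in AOAH, 1.83 TPM in PC and 1.075 TPM in vehicle cells. It passed the filter in AOAH against PC only through the PC libraries, so no test of it is used. Of the other myeloid markers, Itgax had means of 0.71 TPM in AOAH, 0.64 TPM in PC and 0.94 TPM in vehicle cells. Csf1r and Itgam stayed at or below 0.15 TPM in every library. Like these T cell markers, Slc3a2 and Slc1a5 were higher in PC than in vehicle and lower in AOAH than in PC. In AOAH against vehicle the directions differed, with 4 markers lower but 4 of the 9 transporter genes higher and 0 lower. The part of the marker shifts in the results below was not tested. In bulk samples, fewer cells of a type and less RNA per cell cannot be told apart.

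The order of the 9 genes by mean TPM was the same in AOAH, PC and vehicle cells. Slc1a5 was the highest and Slc3a2, Slc7a5, Slc38a1, Slc38a2, Slc7a1, Slc7a6, Slc16a10 and Slc1a4 followed in that order. In vehicle cells this ran over 225 ± 5.34 TPM for Slc1a5, 73.8 ± 4.06 TPM for Slc38a1 and 2.74 ± 0.177 TPM for Slc1a4 (SD, n = 4). By mean TPM over the 11 libraries Slc1a5 stood at place 572 of 25562 genes, Slc3a2 at place 840, Slc7a5 at place 1023 and Slc1a4 at place 9849. Neighbours in the order had ranges that did not overlap, except for Slc38a2 with Slc7a1 in AOAH cells and Slc7a1 with Slc7a6 in PC and in vehicle cells. Summed over the 9 genes, the level was 827 ± 12.5 TPM in AOAH (n = 4), 849 ± 11.8 TPM in PC (n = 3) and 762 ± 23.5 TPM in vehicle cells (n = 4). The lowest AOAH sum was 812 TPM and the lowest PC sum 835 TPM, and the highest vehicle sum was 785 TPM, so neither treated group overlapped vehicle in this description. The abundant genes weigh most in the sum, which does not show a rise in each gene. Slc1a5 had means of 246 TPM in AOAH, 264 TPM in PC and 225 TPM in vehicle cells, and Slc38a2 of 57.5, 60.0 and 58.0 TPM.

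**Figure D1:**
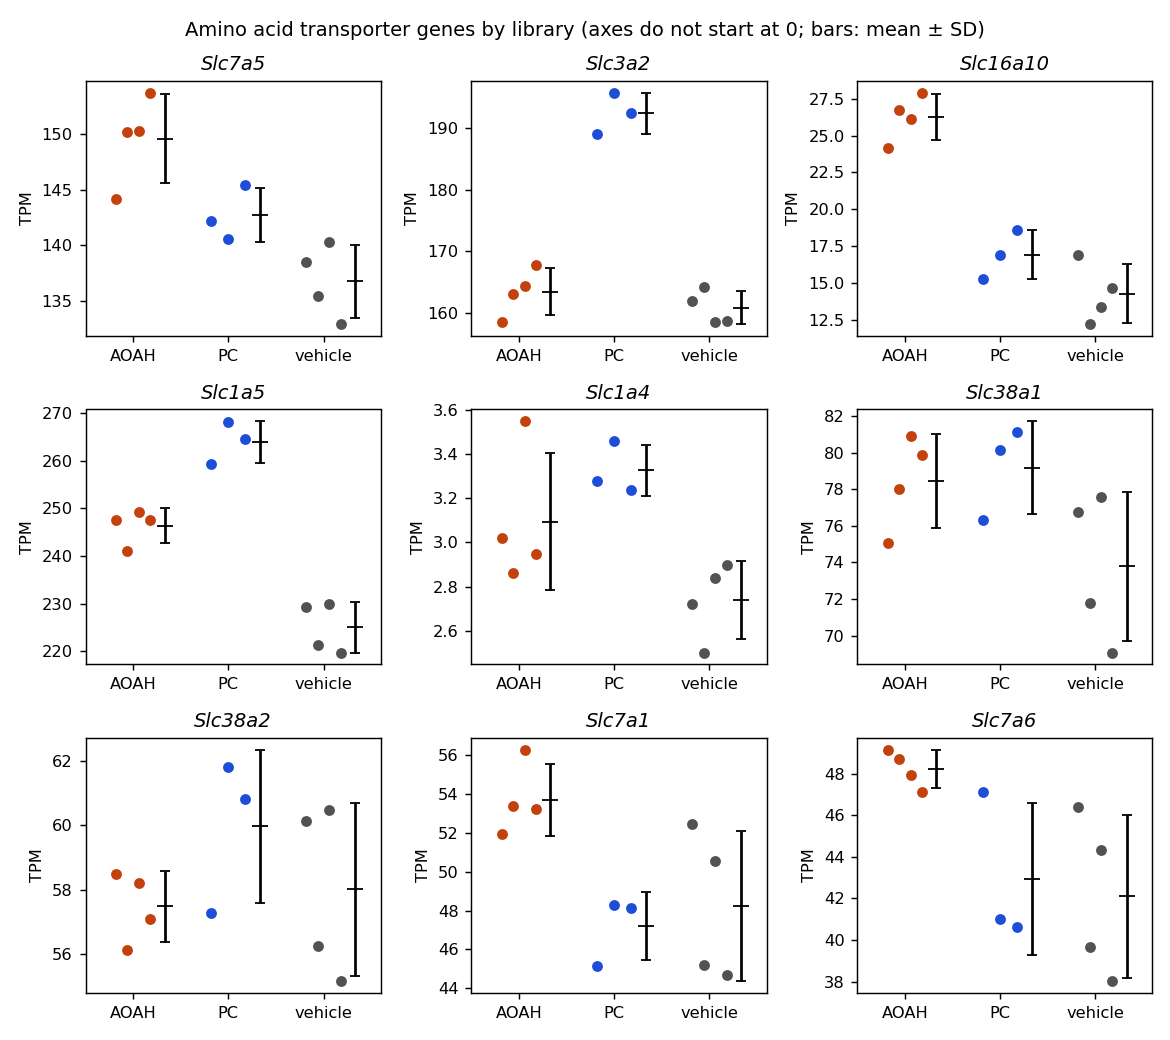
Level in TPM (vertical axis, a scale of its own in each panel) of each of the 9 transporter genes in every AOAH, PC and vehicle library; points are libraries and bars the mean ± SD of 4 AOAH, 3 PC and 4 vehicle libraries. Slc16a10 is at 24.2 to 27.9 TPM in AOAH libraries, above every PC and vehicle library, and Slc3a2 is at 189 to 196 TPM in PC libraries, above every AOAH and vehicle library.

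Promoter windows are printed for 3 genes: Slc16a10 because it had the largest AOAH change of the 9, Slc3a2 because it had the lowest p of the 9 in PC against vehicle, and Slc1a4 because it alone held a searched motif. Each window runs from 250 bases before to 50 bases after an annotated start in RefSeq on the build GRCm38.p6, whereas the expression table was made on mm39. All 3 lie on the minus strand, at chr10:40142205-40142504 for Slc16a10, chr19:8713848-8714147 for Slc3a2 and chr11:20332664-20332963 for Slc1a4, and are given 5′ to 3′ with the motif in capitals. The start lies at the 5′ end of the gene's span for Slc1a4 and 16 bases inside it for Slc16a10, but 9472 bases inside it for Slc3a2, so that window is an internal start and not the outermost one.
Slc16a10: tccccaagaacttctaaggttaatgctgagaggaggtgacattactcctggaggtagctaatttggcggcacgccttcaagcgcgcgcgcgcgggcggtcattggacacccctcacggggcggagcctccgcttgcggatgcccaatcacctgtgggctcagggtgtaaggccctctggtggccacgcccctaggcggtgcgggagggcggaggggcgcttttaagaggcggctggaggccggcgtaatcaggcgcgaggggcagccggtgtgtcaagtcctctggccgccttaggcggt
Slc3a2: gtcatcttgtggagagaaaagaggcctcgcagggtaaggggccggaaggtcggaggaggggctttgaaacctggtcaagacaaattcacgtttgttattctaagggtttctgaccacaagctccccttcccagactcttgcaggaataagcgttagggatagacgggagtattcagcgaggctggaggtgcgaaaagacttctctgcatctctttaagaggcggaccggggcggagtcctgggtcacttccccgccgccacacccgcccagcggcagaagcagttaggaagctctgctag
Slc1a4: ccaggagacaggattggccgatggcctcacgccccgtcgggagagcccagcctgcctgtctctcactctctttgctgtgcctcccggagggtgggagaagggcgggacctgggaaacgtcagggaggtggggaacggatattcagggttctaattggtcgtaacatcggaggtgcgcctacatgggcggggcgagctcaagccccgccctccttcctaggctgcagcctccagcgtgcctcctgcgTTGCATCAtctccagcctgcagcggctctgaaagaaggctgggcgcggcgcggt

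The motifs searched on both strands were TGATGNAA, the C/EBP-ATF response element that ATF4 can bind, and CACGTG, the E-box that Myc and other factors can bind, and neither motif contains the other. Windows were at hand for 6 of the 9 genes, with 2 windows each for Slc7a1 and Slc7a6. The only match was TTGCATCA in Slc1a4, the reverse complement of a C/EBP-ATF element, which spans the start from base -4 to base 4. Of 32851 promoter windows of the same length, 3.97% held the C/EBP-ATF letters and 7.15% held the E-box letters. The other 5 genes with a window held neither set of letters in it.

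Of the LAT1 pair, Slc7a5 rose in AOAH and its heavy chain Slc3a2 rose in PC. Slc7a5 had 144.2, 150.2, 150.3 and 153.8 TPM in AOAH 1 to 4, 142.2, 140.6 and 145.4 TPM in PC 1 to 3, and 138.5, 135.4, 140.3 and 132.9 TPM in vehicle 1 to 4. All AOAH libraries were above all vehicle libraries, and PC libraries lay between, above every vehicle library and with PC 3 above AOAH 1. In AOAH against vehicle its log2 change was 0.13 ± 0.03 (SE) with an adjusted p of 0.0114. Against vehicle 1 to 3, PC gave 0.05 ± 0.03 (95% interval -0.02 to 0.12) with an adjusted p of 0.295. AOAH against PC gave 0.07 ± 0.03 (95% interval -0.00 to 0.13) with an adjusted p of 0.0960, so a difference between the treatments was not called. The AOAH call of Slc7a5 was lost with quantile normalization, where the log2 change shrank to 0.071 with an adjusted p of 0.0825. That adjusted p was the highest of 17 alternatives that began at 0.00339.

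Slc3a2, which brings Slc7a5, Slc7a6 and other light chains to the membrane, had 158.6, 163.1, 164.4 and 167.8 TPM in AOAH 1 to 4, 188.9, 195.7 and 192.3 TPM in PC 1 to 3, and 161.9, 164.2, 158.7 and 158.8 TPM in vehicle 1 to 4. The PC libraries stood above all others, and AOAH and vehicle overlapped. PC against vehicle gave a log2 change of 0.25 ± 0.03 (SE), a mean TPM 19.0% higher, with an adjusted p of 0.00205. AOAH against vehicle gave 0.02 ± 0.03 (95% interval -0.03 to 0.08) with an adjusted p of 0.559. AOAH against PC gave -0.23 ± 0.03 with an adjusted p of 2.86e-04. Slc3a2 was called in 16 of 16 alternatives for PC against vehicle and in 17 of 17 for AOAH against PC.

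The ratio of light to heavy chain within a library depends little on how that library was scaled. Its log2 value was -0.13 ± 0.01 in AOAH (SD, n = 4), -0.43 ± 0.04 in PC (n = 3) and -0.23 ± 0.04 in vehicle libraries (n = 4), and no pair of groups overlapped. By a two-sided exact permutation test the AOAH minus vehicle difference of 0.11 and the AOAH minus PC difference of 0.30 each had p = 0.0286, the smallest these group sizes allow. The PC minus vehicle difference of -0.20, on vehicle 1 to 3, had p = 0.1 by the same exact test, again the smallest that 3 against 3 allow. After adjustment over the 12 ratio tests made, these were 0.114, 0.114 and 0.24, so none passed.

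Slc7a6 (y+LAT2), a light chain that also pairs with Slc3a2 and exchanges cationic for neutral amino acids, had 49.1, 48.7, 47.9 and 47.1 TPM in AOAH 1 to 4, 47.1, 41.0 and 40.6 TPM in PC 1 to 3, and 46.4, 39.7, 44.3 and 38.0 TPM in vehicle 1 to 4. The AOAH libraries stood above all vehicle libraries, while PC 1 at 47.12 TPM just exceeded AOAH 4 at 47.11 TPM, and vehicle 1 and 3 were above vehicle 2 and 4. The log2 change was 0.20 ± 0.06 (SE) in AOAH against vehicle, with an adjusted p of 0.0437, and 0.17 ± 0.05 in AOAH against PC, with an adjusted p of 0.0375. PC against vehicle gave -0.02 ± 0.08 (95% interval -0.20 to 0.17) with an adjusted p of 0.903. Both AOAH calls were lost with batch as a block, at adjusted p of 0.0515 against vehicle and 0.0575 against PC. They were also lost whichever of the 4 AOAH libraries was left out, without vehicle 2 or vehicle 4 in the first and without PC 2 or PC 3 in the second, and the adjusted p ran over alternatives between 0.0157 and 0.110 in the first and 0.00328 and 0.129 in the second. The log2 ratio of Slc7a5 over Slc7a6 was 1.61 ± 0.06 in AOAH, 1.71 ± 0.12 in PC and 1.68 ± 0.10 in vehicle libraries, and all groups overlapped.

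**Figure D2:**
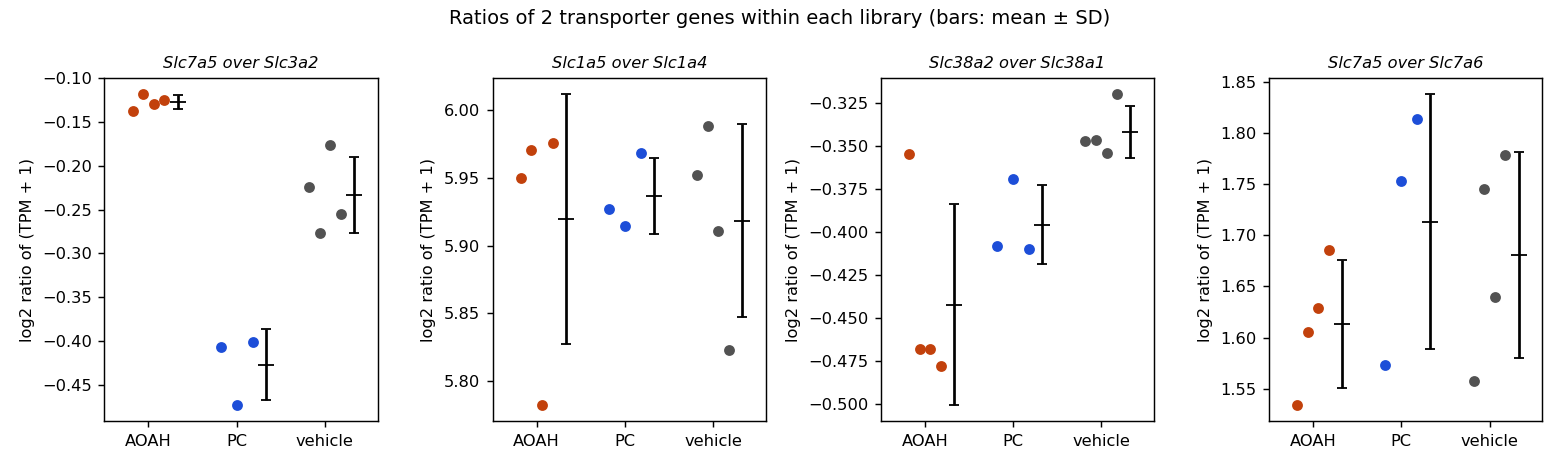
Log2 ratio of 2 transporter genes within each library (vertical axis, on TPM + 1, a scale of its own in each panel) for 4 pairs of related genes; points are AOAH, PC and vehicle libraries and bars the mean ± SD. The Slc7a5 over Slc3a2 ratio falls into 3 ranges that do not overlap, with means of -0.13 in AOAH, -0.43 in PC and -0.23 in vehicle libraries.

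Slc16a10 (TAT1 or MCT10), which carries the aromatic amino acids tryptophan, tyrosine and phenylalanine down their gradient without exchange, showed the largest AOAH change of the 9. It had 24.2, 26.7, 26.1 and 27.9 TPM in AOAH 1 to 4, 15.3, 16.9 and 18.6 TPM in PC 1 to 3, and 16.9, 12.2, 13.4 and 14.7 TPM in vehicle 1 to 4. Every AOAH library was above every other library, while PC and vehicle overlapped. The AOAH mean of 26.2 ± 1.55 TPM (SD, n = 4) was 83.8% above the vehicle mean of 14.3 ± 2.00 TPM (n = 4). The log2 change was 0.84 ± 0.09 (SE; 95% interval 0.64 to 1.05), with an adjusted p of 2.96e-04, and Slc16a10 stood at place 237 of 11561 genes by p. AOAH against PC gave 0.61 ± 0.07 (95% interval 0.43 to 0.78) with an adjusted p of 3.57e-04. PC against vehicle gave 0.25 ± 0.12 (95% interval -0.04 to 0.54) with an adjusted p of 0.210, and ran over 0.16 without vehicle 2 to 0.38 without vehicle 1, never called. Slc16a10 was called in 17 of 17 alternatives in each AOAH comparison. RefSeq places the small nucleolar RNA gene Gm25613 within the span of Slc16a10, and no strand setting of the counting is given in the sources used here.

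Slc1a5, the glutamine exchanger and the most abundant transcript of the 9, rose in both treated groups. It had 247.5, 241.0, 249.3 and 247.6 TPM in AOAH 1 to 4, 259.4, 268.0 and 264.5 TPM in PC 1 to 3, and 229.3, 221.3, 229.98 and 219.7 TPM in vehicle 1 to 4. The 3 groups did not overlap, with PC highest and vehicle lowest. AOAH against vehicle gave a log2 change of 0.13 ± 0.02 (SE), with an adjusted p of 0.00459. PC against vehicle gave 0.22 ± 0.03 with an adjusted p of 0.00287. AOAH against PC gave -0.10 ± 0.02 with an adjusted p of 0.00909, so Slc1a5 was lower in AOAH than in PC cells. The call between AOAH and PC was lost with batch as a block, at an adjusted p of 0.0512, the highest of 17 alternatives that began at 7.21e-04. The call between AOAH and vehicle was lost with quantile normalization, where the log2 change shrank to 0.065 with an adjusted p of 0.0578. That adjusted p was the highest of 17 alternatives that began at 0.00134.

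Slc1a4 (ASCT1), a relative of Slc1a5 that exchanges alanine, serine, cysteine and threonine, was the lowest of the 9. It had 3.02, 2.86, 3.55 and 2.95 TPM in AOAH 1 to 4, 3.28, 3.46 and 3.24 TPM in PC 1 to 3, and 2.72, 2.50, 2.84 and 2.90 TPM in vehicle 1 to 4. All PC libraries were above all vehicle libraries, and AOAH overlapped both. No change was called, with log2 changes of 0.13 ± 0.08 (SE; 95% interval -0.06 to 0.32) in AOAH and 0.23 ± 0.09 (0.02 to 0.44) in PC against vehicle. Their adjusted p were 0.297 and 0.119, and AOAH against PC gave -0.08 ± 0.09 (-0.28 to 0.12) with an adjusted p of 0.472. At this level log2(TPM + 1) understates a change. The log2 ratio of Slc1a5 over Slc1a4 was 5.92 ± 0.09 in AOAH, 5.94 ± 0.03 in PC and 5.92 ± 0.07 in vehicle libraries, and all groups overlapped.

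Neither sodium-coupled glutamine and alanine importer was called in any comparison. Slc38a1 (SNAT1) had 75.1, 78.0, 80.9 and 79.9 TPM in AOAH 1 to 4, 76.3, 80.1 and 81.1 TPM in PC 1 to 3, and 76.8, 71.8, 77.5 and 69.1 TPM in vehicle 1 to 4. The groups overlapped, with vehicle 1 and 3 among the treated libraries and vehicle 2 and 4 below them all. Its log2 change was 0.09 ± 0.04 (SE; 95% interval -0.01 to 0.19) in AOAH and 0.07 ± 0.04 (-0.03 to 0.17) in PC against vehicle, with adjusted p of 0.177 and 0.311. AOAH against PC gave -0.01 ± 0.04 (-0.10 to 0.07) with an adjusted p of 0.802. RefSeq places the long noncoding RNA gene Gm32457 over part of Slc38a1.

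Slc38a2 (SNAT2), known to rise through ATF4 when amino acids are withdrawn, had 58.5, 56.1, 58.2 and 57.1 TPM in AOAH 1 to 4, 57.3, 61.8 and 60.8 TPM in PC 1 to 3, and 60.1, 56.2, 60.5 and 55.1 TPM in vehicle 1 to 4. All groups overlapped. Its log2 change was -0.01 ± 0.04 (SE; 95% interval -0.10 to 0.08) in AOAH and 0.02 ± 0.05 (-0.09 to 0.14) in PC against vehicle, with adjusted p of 0.854 and 0.766. For AOAH against PC it was -0.06 ± 0.04 (-0.15 to 0.03) with an adjusted p of 0.223. The log2 ratio of Slc38a2 over Slc38a1 was -0.44 ± 0.06 in AOAH (SD, n = 4), -0.40 ± 0.02 in PC (n = 3) and -0.34 ± 0.02 in vehicle libraries (n = 4). Neither treated group overlapped vehicle on this ratio, but AOAH 1 at -0.3546 was only just below vehicle 3 at -0.3537. The two-sided exact permutation p was 0.0286 for AOAH against vehicle and 0.1 for PC against vehicle, each the smallest possible, and 0.114 and 0.24 after adjustment over the 12 ratio tests.

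Slc7a1 (CAT1), the importer of arginine and lysine, had 51.9, 53.4, 56.3 and 53.2 TPM in AOAH 1 to 4, 45.2, 48.3 and 48.1 TPM in PC 1 to 3, and 52.5, 45.2, 50.5 and 44.7 TPM in vehicle 1 to 4. AOAH stood above PC without overlap, and vehicle overlapped both, again with vehicle 1 and 3 above vehicle 2 and 4. AOAH against PC gave a log2 change of 0.18 ± 0.04 (SE), with an adjusted p of 0.00790, and was called in 17 of 17 alternatives. AOAH against vehicle gave 0.16 ± 0.06 (95% interval 0.03 to 0.28) with an adjusted p of 0.0758, and PC against vehicle gave -0.06 ± 0.06 (-0.21 to 0.09) with an adjusted p of 0.536. Against vehicle the AOAH change was called with TMM rescaling, at an adjusted p of 0.0325, and without vehicle 1, at 0.0305, in a range of 0.0305 to 0.178 over 17 alternatives.

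**Figure D3:**
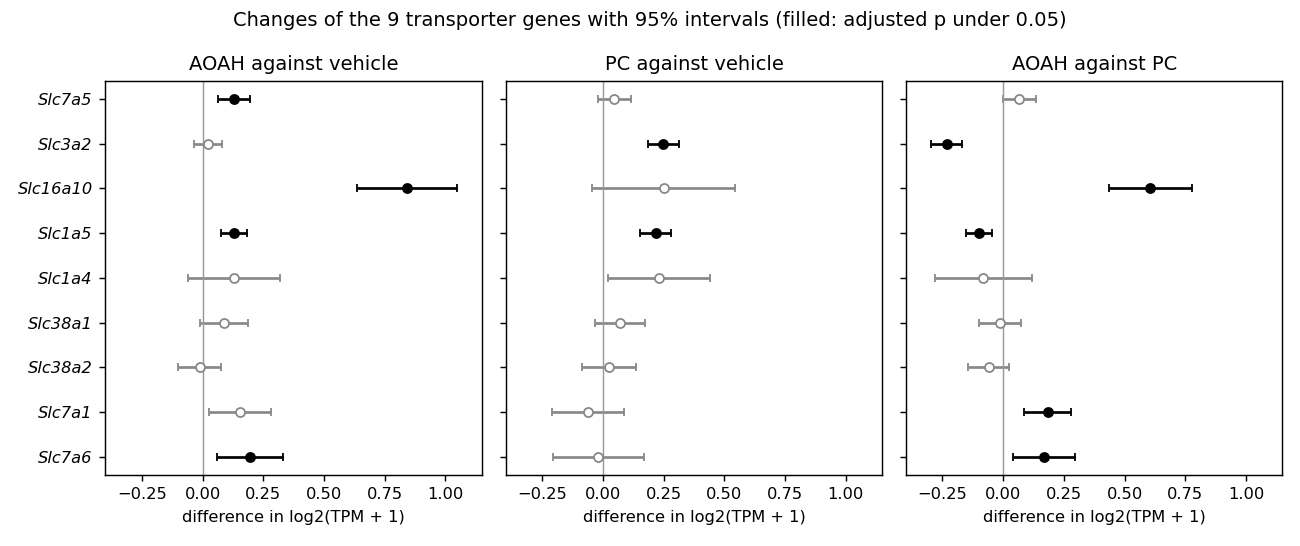
Log2 change of each transporter gene (horizontal axis, on TPM + 1, with 95% intervals) in AOAH against vehicle, PC against vehicle and AOAH against PC; filled points passed an adjusted p of 0.05. Slc16a10 lies farthest to the right in both AOAH comparisons, at 0.84 and 0.61, and Slc3a2 lies at 0.25 in PC against vehicle and at -0.23 in AOAH against PC.

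The authors' deposited table of DESeq2 results gave the same direction for the 4 AOAH and the 2 PC calls. In the authors' deposited table for AOAH, Slc16a10 had a log2 fold change of 0.88 (adjusted p 2.19e-20), Slc7a5 of 0.13 (0.0126), Slc1a5 of 0.13 (0.00531) and Slc7a6 of 0.20 (0.0164). The authors' deposited table also had Slc7a1 at 0.15 with an adjusted p of 0.0107 for AOAH, a gene not called here on TPM. In the authors' deposited table for PC, Slc3a2 had 0.26 (8.24e-05) and Slc1a5 had 0.23 (1.97e-05).

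Among 11595 other genes that averaged 1 TPM or more, those nearest in pattern over the 11 libraries were found by the root mean square difference of centred log2 values. Slc7a5 was nearest to Eif3c (0.0218), a translation initiation factor subunit, then to Txnrd1 (0.0218), thioredoxin reductase, and Ppm1d (0.0241). Slc3a2 was nearest to Rgcc (0.0222), Tgoln1 (0.0318) and Spn (0.0339), which encodes the T cell sialoglycoprotein CD43. Slc1a5 was nearest to Sptlc1 (0.0235), a subunit of the first enzyme of sphingolipid synthesis, and Pdia6 (0.0288) was also among its nearest. The nearest for Slc16a10 were less near, with Cd200 at 0.180, Lclat1 at 0.183 and Spin4 at 0.192. The centred values were not scaled, so the measure also reflects how much a gene varies. Pearson correlations with Slc16a10 were 0.898 for Cd200, 0.968 for Lclat1 and 0.894 for Spin4. With Slc7a5 they were 0.939 for Eif3c, 0.940 for Txnrd1 and 0.922 for Ppm1d. On this measure Slc3a2 stood at place 4362 for Slc7a5, and Slc7a5 at place 2238 for Slc3a2, whereas Slc1a5 stood at place 151 for Slc3a2.

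Of 25 other plasma membrane amino acid transporters in the table, 16 were below 1 TPM in every library. In AOAH against vehicle 8 were tested and 2 fell, 25% of them, against 25.2% of all genes called (median log2 change 0.07, against 0.01 over all genes). Slc6a19 (B0AT1), a sodium-coupled neutral amino acid importer best known from gut and kidney, had 2.73, 2.93, 3.13 and 2.61 TPM in AOAH 1 to 4, 11.09, 12.94 and 11.97 TPM in PC 1 to 3, and 7.96, 9.62, 9.70 and 10.1 TPM in vehicle 1 to 4. The 3 groups did not overlap, with AOAH lowest and PC highest. Its log2 change was -1.42 in AOAH against vehicle (adjusted p 1.91e-05), 0.37 in PC against vehicle (0.0365) and -1.76 in AOAH against PC (4.37e-06).

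Slc43a2 (LAT4), a facilitator of leucine, phenylalanine and other neutral amino acids, had 8.25, 10.3, 9.39 and 11.8 TPM in AOAH 1 to 4, 14.4, 15.8 and 16.8 TPM in PC 1 to 3, and 15.2, 14.2, 12.7 and 14.1 TPM in vehicle 1 to 4. AOAH lay below PC and vehicle without overlap. Its log2 change was -0.47 in AOAH against vehicle (adjusted p 0.00895) and -0.61 in AOAH against PC (0.00275). In PC against vehicle 7 of these transporters were tested and 3 rose, 42.9% of them, against 19.5% of all genes called and 8.27% called higher (median 0.15, against -0.01 over all genes): the glycine transporter Slc6a9 by 0.68 (adjusted p 0.0245), the cationic transporter Slc7a3 by 0.53 (0.0302) and Slc6a19. These 3 PC calls were each lost without vehicle 1, vehicle 3, PC 2 or PC 3, and that of Slc6a19 also without PC 1 or vehicle 2, with adjusted p of up to 0.110. In AOAH against PC 7 were tested, with 1 higher and 4 lower, 71.4% of them, against 45.8% of all genes called (median -0.61, against 0.00 over all genes). Besides Slc6a19 and Slc43a2, Slc7a3 at -0.70 (adjusted p 0.00140) and Slc6a9 at -0.64 (0.00360) were lower in AOAH. Slc1a2, lower in PC than in all AOAH and vehicle libraries, was outside the filter in both PC comparisons, so both counts leave it out.

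**Figure D4:**
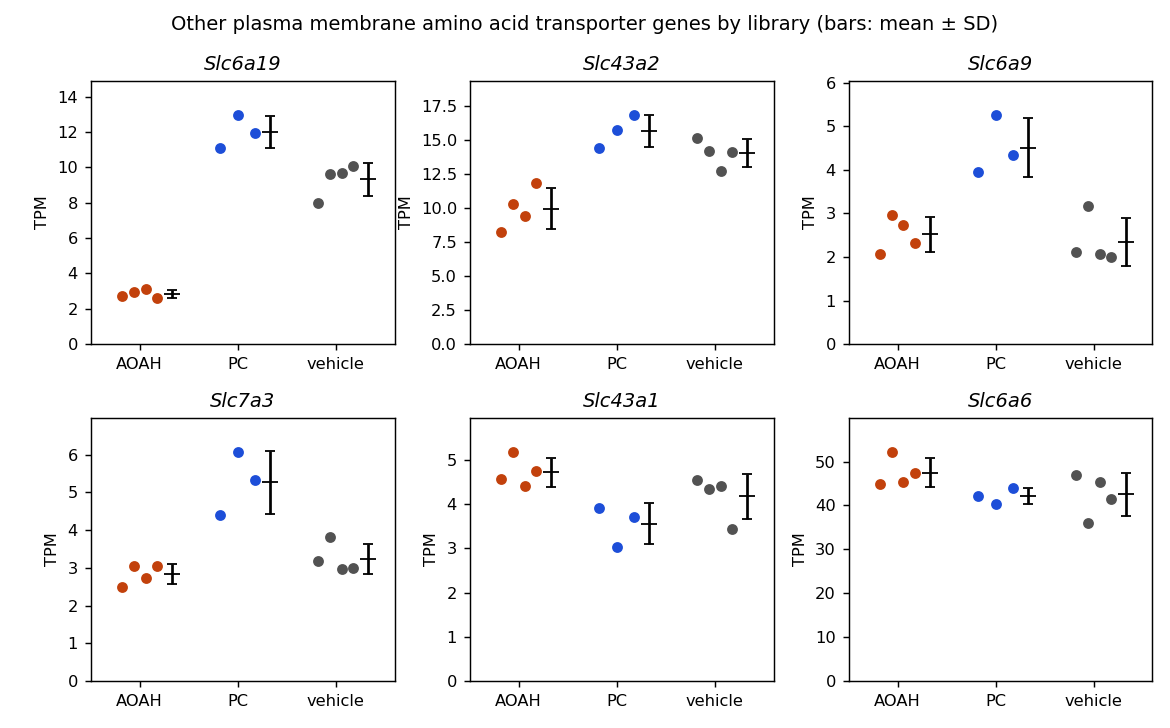
Level in TPM (vertical axis, a scale of its own in each panel) of 6 of the other plasma membrane amino acid transporter genes in every AOAH, PC and vehicle library; points are libraries and bars the mean ± SD. Slc6a19 is at 2.61 to 3.13 TPM in AOAH libraries, below every PC and vehicle library.

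The rest of the pathway was described by 6 lists, whose counts stand against 13.1% called higher and 12.1% called lower of all genes in AOAH, and 8.27% and 11.2% in PC. Of the 10 lysosomal transporters tested, 1 was called in AOAH against vehicle, the proton-coupled Slc36a1 at -0.32 (adjusted p 0.0377), and that call was lost in 8 alternatives, among them those without AOAH 1, 2 or 4 or without vehicle 1, 2 or 3, with adjusted p of up to 0.0930. In PC against vehicle 0 of 10 were called by limma, and 0 were at an unadjusted p under 0.05. Of 11 mitochondrial carriers tested, 2 rose and 1 fell in AOAH against vehicle, and 2 rose and 4 fell in PC against vehicle. Sfxn3, a sideroflexin related to Sfxn1, had the lowest p of this list in AOAH, with a log2 change of -0.53 (adjusted p 0.00118), and was at 0.42 in PC (0.00507). The serine carrier Sfxn1 had a log2 change of 0.14 in AOAH (adjusted p 0.00568) and of -0.32 in PC (0.00155), and the aspartate and glutamate carrier Slc25a13 had 0.31 (0.00155) and -0.39 (0.00770). Slc25a12, the other aspartate and glutamate carrier, was at -0.24 in PC (adjusted p 0.00792).

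The cytosolic aminoacyl-tRNA synthetases, which load tRNAs with the amino acids that transporters deliver, rose in AOAH for 13 of 20 genes and fell for 1 (median 0.13), and 3 rose and 3 fell in PC (median -0.03). The asparaginyl enzyme Nars had a log2 change of 0.20 in AOAH (adjusted p 8.13e-04), and the 1 that fell was the tryptophanyl enzyme Wars1 at -0.24 (2.62e-04). Rars at 0.14 and Gars at 0.15 also rose in AOAH (adjusted p 0.00224 each). In PC Wars1 rose by 0.20 (adjusted p 0.00382) and Sars by 0.17 (0.00930), while Vars fell by 0.18 (0.0145) and Farsb by 0.17 (0.0154), the last not called without vehicle 1 (0.0567). The count of 13 was 8 without AOAH 3, AOAH 4 or vehicle 4, and ran between 8 and 15 over the alternatives. Of 21 tested enzymes of the metabolism of glutamine, leucine, arginine and methionine, 10 rose and 1 fell in AOAH (median 0.15). In PC 2 of them rose and 6 fell (median -0.10). Odc1, the first enzyme of polyamine synthesis, was at 0.27 in AOAH (adjusted p 1.90e-04), and Ppat, the first enzyme of purine synthesis, was at 0.19 in AOAH (0.00209) and at -0.24 in PC (0.00352). Ahcy, of the methionine cycle, was at 0.19 in AOAH (adjusted p 0.00313) and at -0.23 in PC (0.00472), and Got1 was at 0.16 in AOAH (0.00295). Asns, asparagine synthetase, rose in PC by 0.31 (adjusted p 0.00982) and Bcat1 by 0.24 (0.0185), but Bcat1 was not called without PC 1, PC 2 or PC 3 (up to 0.0643 over the alternatives). Bcat1 rose in AOAH as well, by 0.23 (adjusted p 0.0135), and was not called between AOAH and PC (-0.05, adjusted p 0.261). The 6 that fell in PC were 2 without PC 1, PC 2, vehicle 1 or vehicle 3, and the 10 that rose in AOAH ran between 7 and 11.

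Of 19 tested genes of the response through GCN2 and ATF4, 6 rose and 2 fell in AOAH (median 0.08) and 9 rose and 2 fell in PC (median 0.31). The 9 ran between 7 and 9 over the alternatives, and the 6 were 3 without vehicle 2 or with batch as a block. In PC the pseudokinase Trib3 rose by 1.00 on the log2 scale (adjusted p 7.07e-04) and Ppp1r15a by 0.46 (0.00682). Sesn2, a leucine sensor also counted among the mTORC1 sensing genes, rose in PC by 0.70 (adjusted p 0.00145). Asns and Gpt2 are likewise counted both here and among the enzymes above, so these lists are not separate. The serine synthesis enzyme Phgdh fell in PC by 0.20 (adjusted p 0.00258) and rose in AOAH by 0.08 (0.0115), and the AOAH call was lost with quantile normalization, at an adjusted p of 0.248. In AOAH Psat1, of the same route, rose by 0.18 (adjusted p 0.00314) and Ddit3 (CHOP) fell by 0.44 (0.0120). Trib3 was at -0.36 in AOAH (adjusted p 0.0294), and in PC Psat1 was at -0.16 (0.0264) and Ddit3 at 0.67 (0.00747). Atf4 itself was higher in both treated groups, at 0.15 in PC (adjusted p 0.00963) and at 0.10 in AOAH (0.0164). The AOAH call of Atf4 was lost with quantile normalization (0.251). Of 35 genes of amino acid sensing upstream of mTORC1, 2 rose and 5 fell in AOAH and 2 rose and 2 fell in PC, with medians of 0.00 and -0.01. Sesn1 had the lowest p of these in AOAH, with a log2 change of -0.57 (adjusted p 1.51e-04), followed by Sesn3 at -0.31 (0.00718), the arginine sensor Castor1 at -0.33 (0.0122) and Bmt2 at -0.27 (0.0148). In PC, besides Sesn2, Rheb rose by 0.20 (adjusted p 0.0122), and Wdr59 at -0.27 (0.0262) and Castor1 at -0.36 (0.0297) fell. With a batch block neither PC fall was called (adjusted p 0.0813 for Wdr59 and 0.0886 for Castor1). Whichever of the 6 libraries was left out, Castor1 was not called, and Wdr59 was called only without vehicle 3, with adjusted p of up to 0.0897 and 0.0875 over the alternatives. Counts of 1 to 3 calls in these lists often changed when 1 library was left out.

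In AOAH against PC, where 24.3% of all genes tested were higher and 21.5% lower, 11 of 20 synthetases were higher and 2 lower, and 12 of 21 amino acid enzymes were higher and 2 lower. The synthetases of lowest p were Wars1 at -0.44 (adjusted p 1.69e-05), Eprs at 0.28 (1.60e-04), Kars at 0.23 (2.46e-04) and Farsb at 0.27 (3.89e-04). The enzymes of lowest p were Ppat at 0.41 (adjusted p 1.29e-05), Ahcy at 0.40 (1.48e-05), Mat2a at 0.26 (1.72e-04) and Asns at -0.42 (2.10e-04). Of the 11 mitochondrial carriers 5 were higher and 2 lower, with Sfxn1 at 0.44 (adjusted p 1.25e-05), Slc25a13 at 0.70 (2.16e-05) and Slc25a15 at 0.41 (0.00155) among the higher and Sfxn3 at -0.93 (5.02e-05) among the lower. Of the 19 genes of the response through GCN2 and ATF4, 5 were higher and 8 lower, with Trib3 at -1.30 (adjusted p 2.34e-05) and Ddit3 at -1.10 (1.07e-04) among the lower and Phgdh at 0.28 (4.61e-05) and Psat1 at 0.33 (1.30e-04) among the higher. Of the 35 sensing genes 6 were higher and 9 lower, with Sesn1 at -0.68 (adjusted p 3.39e-05), Sesn2 at -0.49 (8.29e-04), Lamtor4 at -0.31 (0.00105) and Seh1l at 0.19 (0.00147). Of the 10 lysosomal transporters Slc36a4 was higher at 0.29 (adjusted p 0.0359), and Slc36a1 at -0.39 (0.00856) and the cystine carrier Ctns at -0.38 (0.0336) were lower. With batch as a block Slc36a1 was not called (0.0564), nor was Slc36a4. Of the 7 libraries, leaving out AOAH 1, AOAH 3, PC 2 or PC 3 ended the call of both Slc36a4 and Ctns, AOAH 4 that of Slc36a4 and PC 1 that of Ctns, with adjusted p of up to 0.143 and 0.109 over the alternatives.

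**Figure D5:**
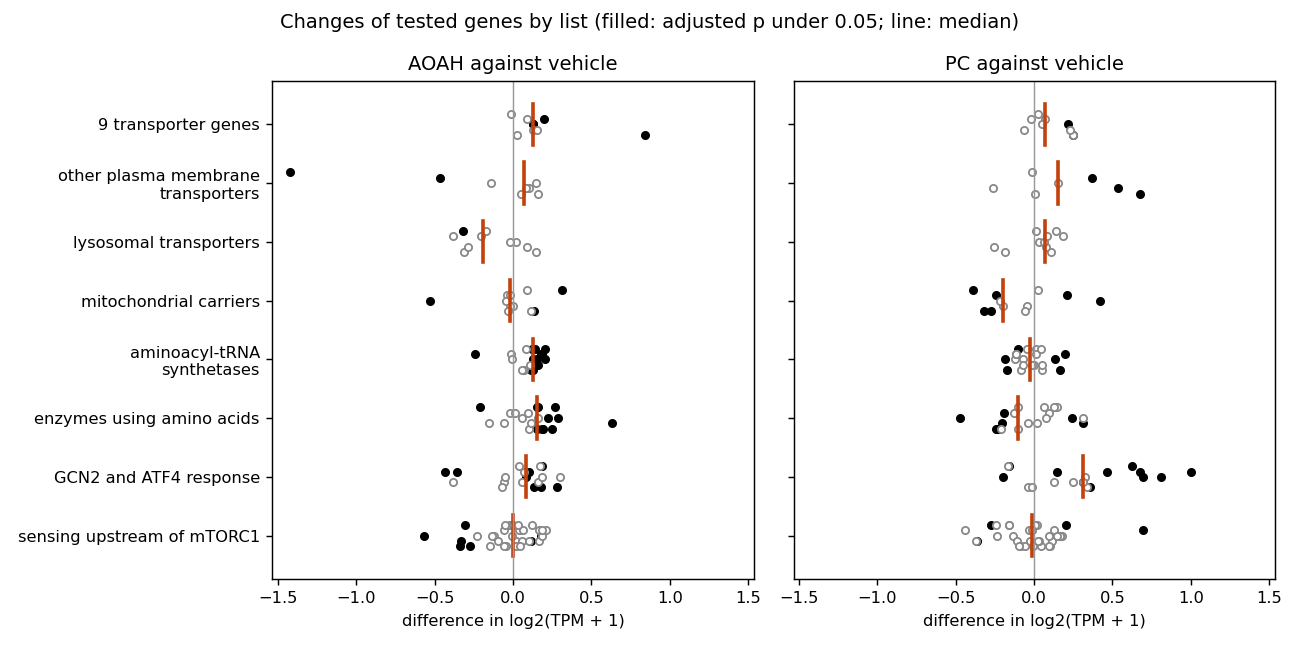
Log2 change (horizontal axis, on TPM + 1) of the tested genes of each amino acid list in AOAH against vehicle and in PC against vehicle; points are genes, filled where the adjusted p was under 0.05, and the line is the median of the list. The response through GCN2 and ATF4 has a median of 0.08 in AOAH and 0.31 in PC, and the synthetases have a median of 0.13 in AOAH and -0.03 in PC.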

How the data were processed

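RSEM gave the authors' TPM, per the submitters' processing notes, and the deposited table holds log2 of TPM plus 1 for 25562 genes, which was turned back into TPM. Library sums were 998406 to 998655 TPM, and 99.9% of non-zero TPM lay within 1e-04 of a multiple of 0.01. The authors used DESeq2 and the build mm39, per the submitters' processing notes. The aligner, annotation, versions and handling of molecular identifiers were not given in the sources used here. Per the labels, polyadenylated RNA was read in pairs. The authors' deposited DESeq2 tables hold base means (a signal, averaged over libraries), log2 fold changes, a Wald score, p-values and adjusted p-values, and their Ensembl IDs were matched to symbols for 22521 of 23418 IDs in AOAH and 23450 of 24346 IDs in PC.

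Tests used limma 3.58.1 in R 4.3.3 on log2(TPM + 1), with a mean-variance trend and robust estimation, two-sided, over genes averaging 1 TPM or more in the libraries compared. On this scale a change of a low gene is understated. AOAH was compared with 4 vehicle libraries, PC with vehicle 1 to 3, since vehicle 4 is not labelled for that comparison, and AOAH with PC directly. The method was checked on simulated data with independent noise and planted changes larger than most of those called for the 9 genes. It was therefore not checked on changes of their size. The 9 members and the gene lists were chosen with earlier results of these data known. Besides the 9 members, genes were named as the up to 4 of lowest p among those called in each list, and as the 3 nearest in pattern, of which 1 result is not reported here; Slc43a1 and Slc6a6 appear in a plot outside this rule. Promoters came from RefSeq, GRCm38.p6, and none was at hand for Slc7a5, Slc1a5 and Slc38a1. Batch numbers of the labels pair libraries across groups. Deviations from the group means correlated by -0.00332 on average in 10 same-batch pairs (-0.0794 to 0.118) and by 0.00114 in 30 other pairs. Alternatives were TMM and quantile scaling, pseudocounts of 0.1 and 5, no filter and one of 5 TPM, 1 fit over all 11 libraries, a batch block, array weights, vehicle 4 for PC, batches 1 to 3 for AOAH against PC, and each library left out.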

Additional observations from a re-analysis of the deposited data

Results flagged for a closer look

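Among 26 sets of 4 libraries tested for a library far from the others (9 genes and 4 ratios, in AOAH and in vehicle), 2 had one, and chance gives about 1 in 20. AOAH 3 had the lowest log2 ratio of Slc1a5 over Slc1a4 in its group, 5.78, set apart by 0.866 of the group's range, where Slc1a4 was at 3.55 TPM against 2.86 to 3.02 TPM in the other AOAH libraries. AOAH 1 had the highest log2 ratio of Slc38a2 over Slc38a1 in its group, -0.35, set apart by 0.918 of the range, where Slc38a1 was at 75.1 TPM against 78.0 to 80.9 TPM in the other AOAH libraries.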

How the results depend on the processing

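The count of transporter genes called in AOAH against vehicle was 4 and became 2 with quantile normalization; it was 3 to 5 with 1 library left out. In PC against vehicle it was 2 throughout. In AOAH against PC it was 5, became 3 with batch as a replicate block and was 4 to 5 with 1 library left out. With the block the AOAH against vehicle count was 3, and the block changed no other call of the 9 genes than those given for Slc7a6 and Slc1a5. Over all genes, 2270 were called in PC against vehicle, 1339 with no filter, and 1274 to 2083 with 1 library left out, of which 1405 without PC 2, 1387 without PC 3, 1274 without vehicle 1 and 1391 without vehicle 3. The counts with 1 library left out were 2198 to 2643 in AOAH against vehicle and 4446 to 5048 in AOAH against PC. Changes that were near 0 and not called turned sign: Slc3a2 in AOAH to -0.0265 with quantile normalization, Slc7a6 in PC to 0.0284 with 1 fit over all libraries and with vehicle 1 to 4, and with 1 library left out Slc38a2 in AOAH (-0.0356 to 0.00801), Slc7a6 in PC (-0.0854 to 0.0292), Slc38a2 in PC (-0.00885 to 0.0565) and Slc38a1 in AOAH against PC (-0.0393 to 0.00756). The difference in the log2 ratio of Slc1a5 over Slc1a4, near 0 in each comparison, turned sign with a pseudocount of 0.1 in AOAH against vehicle (-0.0366) and AOAH against PC (0.00576), and with vehicle 1 to 4 in PC (0.0182). With libraries left out it ran over -0.0309 to 0.0470 in AOAH against vehicle, -0.0338 to 0.00535 in PC against vehicle and -0.0360 to 0.0288 in AOAH against PC. The Slc7a6 call was lost with no filter in AOAH against vehicle (adjusted p 0.0979) and in AOAH against PC (0.0848), and in the second also with quantile normalization, 1 fit over all libraries and batches 1 to 3 alone. Slc7a5 was called in AOAH against PC without AOAH 1 (adjusted p 0.0394). List counts and listed genes were run under the same alternatives, chosen after seeing the data. The cause of these moves was not tested. Slc1a4 was outside the filter of 5 TPM, which gave it no value. TPM keeps no depth, so the counting error behind each value is unknown, and low genes such as Slc1a4 are the least certain.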

Other observations

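Among the vehicle libraries, vehicle 1 and vehicle 3 were both above vehicle 2 and vehicle 4 in 6 of the 9 genes: Slc7a5, Slc1a5, Slc38a1, Slc38a2, Slc7a1 and Slc7a6. The same held for 3785 of 11596 genes, or 32.6%. Unweighted TMM scaling factors were 1.02 in vehicle 1, 0.994 in vehicle 2, 1.02 in vehicle 3 and 0.983 in vehicle 4. This order was seen in the values and is no grouping of the study, and what it goes with was not tested.

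Slc7a11 (xCT), the cystine importer that also pairs with Slc3a2, stayed below 1 TPM in all groups, with means of 0.11 TPM in AOAH, 0.41 TPM in PC and 0.15 TPM in vehicle cells, and was not tested. Slc38a10 was the most abundant gene of the list of other plasma membrane transporters, and where its protein lies in these cells was not examined. It was at 62.2 to 76.4 TPM in AOAH, 62.3 to 67.9 TPM in PC and 61.7 to 66.0 TPM in vehicle libraries, which overlapped, and it was not called in any comparison. Slc1a2, of the same list, had means of 1.045 TPM in AOAH, 0.29 TPM in PC and 0.9725 TPM in vehicle cells. Every PC library was below every AOAH and vehicle library. Its mean was under 1 TPM in both PC comparisons, so its lower level in PC was not tested. In AOAH against vehicle it was not called, at a log2 change of 0.05 (limma adjusted p 0.739). These genes were chosen after their values were seen.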
